A study of Arabidopsis thaliana with 16 samples.

Results

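H2Aub, ubiquitin on histone H2A, was set against H3K27me3, the trimethyl mark on lysine 27 of histone H3, in Arabidopsis thaliana seedlings that lack a functional UBP5, a ubiquitin-specific protease. The data were 5 ChIP-seq peak lists, 3 for H2Aub and 2 for H3K27me3, out of 10 samples with a peak list and 16 samples in the whole series. A nuclear gene was called marked when a peak with a score over 30 overlapped it by at least 1 bp in at least 2 samples of the mark. The 33056 nuclear genes of the TAIR10.1 annotation, 27444 of them protein-coding, then fell into 4 classes. There were 4515 genes with both marks, 16085 with H2Aub only, 1953 with H3K27me3 only and 10503 with neither.

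All 5 samples came from seedlings of the ubp5 line at 12 days after germination, grown without further treatment according to the labels. The line is a single CRISPR/Cas9 deletion allele in the Col-0 background. The deletion takes away part of the DUSP and UBP domains of the protein, and it is the only allele here, so values that belong to this allele and values that belong to the line cannot be told apart. Wild-type Col-0 seedlings of the same age, with 3 H2Aub and 2 H3K27me3 samples, were used to see which class each gene had there and how H2Aub and H3K27me3 lay along the genes of each ubp5 class. The methods call the replicates biological, but neither they nor the labels say whether these came from separate pools of plants, so p-values measure only the spread between samples. Peak lists hold no expression values, and the tissue label could not be checked against marker genes.

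As background, Polycomb group proteins keep developmental genes silent through 2 families of complexes. PRC2 places H3K27me3 through its SET domain methyltransferases, and the RING finger proteins of PRC1 place ubiquitin on H2A. Ubiquitin is removed again by deubiquitinases, to which the UBP family belongs. In plants H2Aub is found on many active genes as well as on silent ones, whereas H3K27me3 typically spreads over whole transcription units of silent genes.

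The amount of sequence called differed between samples, most of all for H2Aub. The H2Aub samples held 16449, 9786 and 19014 peaks over 22.5, 10.9 and 27.8 Mb, and the H3K27me3 samples held 5302 and 5565 peaks over 14.2 and 14.7 Mb. Replicate 2 of H2Aub thus had the fewest H2Aub peaks, and it is also the H2Aub sample of ubp5 with the fewest mapped reads in the study's own list. Of its peak length 94.9% lay within peaks of replicate 1 and 96.2% within peaks of replicate 3. The lists do not hold read numbers, so a gene without a peak is a gene where none was called at that depth, not a gene shown to lack the mark. UBP5 itself (AT2G40930) had 669, 655 and 657 bp under H2Aub and 0 bp under H3K27me3 in both samples, and a peak list cannot show whether a gene is disrupted.

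The marks differed in shape. H2Aub peaks were narrow and close to gene starts, with median widths of 957, 838 and 1003 bp in the 3 samples, while H3K27me3 peaks had medians of 1729.5 and 1719 bp. Within 500 bp of a gene start lay 45.2% ± 0.268 (SD, n = 3) of the peak length of H2Aub and 29.6% ± 0.351 (SD, n = 2) of that of H3K27me3, against 24.7% of the nuclear genome. Outside genes lay 17.8% ± 5.11 (SD, n = 3) of H2Aub and 43.1% ± 0.0743 (SD, n = 2) of H3K27me3 peak length, against 44.5% of the nuclear genome. In none of these values did the marks overlap. On genes with a peak, the median share of gene length under peaks was 42.2% ± 3.29 (SD, n = 3) for H2Aub and 87.5% ± 0.283 (SD, n = 2) for H3K27me3. The gene end was covered far less by H2Aub, since over the last 10% of the length of such genes 24.5% ± 5.66 (SD, n = 3) lay under H2Aub and 57.0% ± 0.0494 (SD, n = 2) under H3K27me3. Over the first 10% of gene length the samples of the marks overlapped, at 62.4% ± 9.17 (SD, n = 3) and 69.1% ± 0.596 (SD, n = 2). Each value without overlap, the numbers of peaks and of genes with a peak included, gave p = 0.2 in an exact permutation test over samples (two-sided), the smallest p that 3 against 2 samples can give, and 0.257 after Benjamini-Hochberg adjustment over 9 values. Covered length and the first 10% of gene length gave p = 0.6 in the same exact test, and 0.6 after adjustment.

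Over all nuclear genes, 62.3% were marked by H2Aub and 19.6% by H3K27me3. By class, 13.7% had both marks, 48.7% H2Aub only, 5.91% H3K27me3 only and 31.8% neither. Of the 6468 genes with H3K27me3, 69.8% also had H2Aub, while 60.5% of the 26588 genes without H3K27me3 had it. Seedlings hold many cell types, so marks on the same nucleosomes and marks in different cells cannot be told apart. The border between the classes depended on the H2Aub samples. Without replicate 1 there were 2741 genes with both marks and 3727 with H3K27me3 only, without replicate 3 there were 2734 and 3734, and both remaining samples were then needed, replicate 2 among them. Without replicate 2 the counts were 4502 and 1966. Of the 1953 genes with H3K27me3 only, 62.4% had no H2Aub peak in any sample and 37.6% had one in a single sample, which was replicate 3 for 704 of 735 genes. On the edge of the rule, genes with a peak in 1 H2Aub sample (3481) had a median of 29% of their length under it, whereas genes with peaks in 2 samples (8929) had 42.3% and those with peaks in 3 samples (11671) had 57.5% in the sample with the longest coverage. For H3K27me3 the medians were 33.9% for the 940 genes with a peak in 1 sample and 93.6% for the 6468 genes with peaks in both.

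The 2 kinds of H2Aub-marked genes carried H2Aub in different places. On genes with H2Aub only, it peaked just behind the gene start and fell away towards the end. In replicate 1 the covered share rose from 64.3% of the first 10% of gene length to 79.1% of the second and then fell to 44.3% of the fifth. On genes with both marks the share in replicate 1 was 65.3% over the first 10% of gene length and 79.8% over the second, and it was still 76.4% over the fifth. The samples with more or fewer peaks gave the same picture at other levels, with 45.3% against 80.1% over the fifth part of 10 in replicate 3 and 24.1% against 43.3% in replicate 2.

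**Figure D1:**
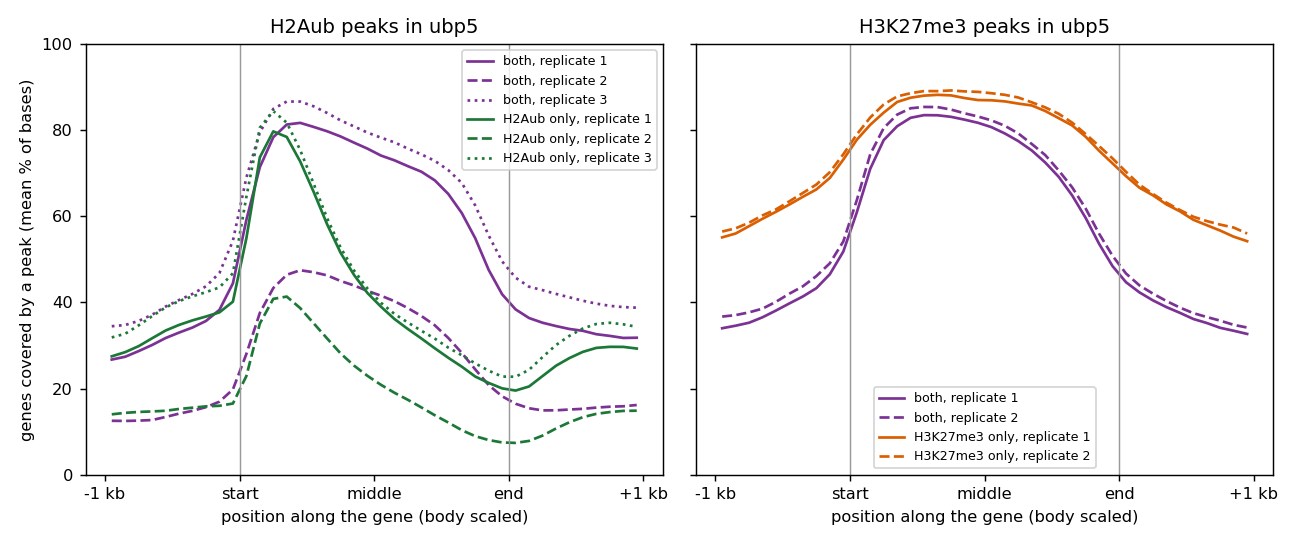
Mean share of bases under a peak (%) along genes, from 1 kb before the start over the scaled gene body to 1 kb behind the end, in each ubp5 sample (line types). Left, H2Aub on genes with both marks (purple) and with H2Aub only (green), where the lines of each replicate part in the gene body, at 76.4% and 44.3% over the fifth part of 10 in replicate 1. Right, H3K27me3 on genes with both marks (purple) and with H3K27me3 only (orange).

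The gap between the classes was wider inside the gene than at its end. Over the eighth part of 10, H2Aub covered 66.8%, 33.2% and 71.8% on genes with both marks, and 28.3%, 13.0% and 30.6% on genes with H2Aub only. Over the last 10% of gene length, H2Aub covered 44.7%, 19.5% and 52.5% in the 3 samples on genes with both marks, and 20.7%, 7.79% and 23.5% on genes with H2Aub only. It was higher on genes with both marks in 3 of 3 samples, by 21.6 ± 8.91 percentage points (SD, n = 3; exact sign-flip test within samples, two-sided, p = 0.25, the smallest p that 3 samples can give). Over the first 10% of gene length the difference was 2.16 ± 1.46 percentage points (SD, n = 3; exact sign-flip p = 0.25), less than at the end in each of the 3 ubp5 samples. Among protein-coding genes of 1500 to 2500 bp (1436 with both marks, 5113 with H2Aub only), a range chosen after seeing the data, the difference over the last 10% of gene length was 21.5 ± 9.49 percentage points (SD, n = 3). The Col-0 samples had no part in setting the classes. In them H2Aub covered 25.8%, 29% and 42.3% of the last 10% of the length of genes with both marks in ubp5, and 9.67%, 14.6% and 21.4% of genes with H2Aub only. There the difference was 17.2 ± 3.34 percentage points (SD, n = 3) over the last 10% of gene length and 18.9 ± 3.34 (SD, n = 3) over the first. By sample it was 16.1, 14.5 and 20.9 at the end and 22.8, 17.4 and 16.7 at the start. It was thus larger at the start in replicates 1 and 2 and larger at the end in replicate 3. Of the genes with H2Aub only in ubp5, 42.1% had neither mark in Col-0, and the part of this in the difference was not tested.

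The height of the peaks did not part the classes in the same way. The fold enrichment over background of the strongest H2Aub peak on a gene, as the peak caller gave it, had medians of 2.77 on genes with both marks and 2.81 on genes with H2Aub only in replicate 1. In replicate 2 they were 3.19 and 3.14, and in replicate 3 they were 2.76 and 2.93, so the direction varied between samples. The widest H2Aub peak on a gene had a median of 1836 bp on genes with both marks and 1231 bp on genes with H2Aub only in replicate 1. It was 1323 against 922 bp in replicate 2 and 2321.5 against 1427 bp in replicate 3. On genes with both marks the widest H2Aub peak was thus broader in 3 of 3 samples, while the fold was higher in 1 of 3.

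On H3K27me3-marked genes the picture was the reverse, in that genes without H2Aub had the broader H3K27me3 domains. The widest H3K27me3 peak on a gene had medians of 4133 and 4241 bp on genes with H3K27me3 only and of 2379 and 2507 bp on genes with both marks. Over the first 10% of gene length H3K27me3 covered 79.5% and 81.0% of genes with H3K27me3 only, and 66.0% and 69.1% of genes with both marks. The difference was -12.7 ± 1.16 percentage points (SD, n = 2; exact sign-flip test, two-sided, p = 0.5, the smallest p that 2 samples can give). Among protein-coding genes it was smaller, at -10.1 ± 0.982 percentage points (SD, n = 2). Among those of 1500 to 2500 bp, the range chosen after seeing the data, it was -7.43 ± 0.569 (SD, n = 2). Genes with H3K27me3 only were also shorter, and the part of gene length in the shares below was not tested. The whole gene lay under the peak in 56.4% and 58.0% of genes with H3K27me3 only, and in 29.5% and 32.1% of genes with both marks. For H2Aub the whole gene was covered in 21.6%, 12.1% and 28.9% of genes with both marks that had a peak in the sample, and in 9.06%, 4.84% and 11% of genes with H2Aub only.

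How the marks lay to each other was read from the bases that at least 2 samples of a mark shared. In 4437 of 4515 genes with both marks (98.3%) the marks had at least 1 base in common. The H3K27me3 bases of the gene lay entirely within H2Aub in 1605 genes, and the H2Aub bases lay entirely within H3K27me3 in 1426 genes. In 958 genes they overlapped in part, in 446 genes both covered the whole gene, and in 2 genes they covered exactly the same bases. Only 76 genes had no base in common, with a median length of 3236.5 bp, and in 49 of these H2Aub was the mark nearer the start. The other 2 genes had no base under 1 of the marks in 2 samples. At the median, 75.3% of the gene lay under H2Aub, 80.1% under H3K27me3 and 58.1% under both. Where the covered lengths of the marks add to more than the gene, common bases are forced. Whether the marks shared more bases than their coverage alone would give was not tested. Neither mark was placed nearer the start as a rule: H2Aub was nearer in 2017 of 4065 genes where the marks did not coincide (49.6%). By comparison, the middle of H2Aub lay at 24.0% of gene length, at the median, on genes with H2Aub only and at 48.3% on genes with both marks.

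**Figure D2:**
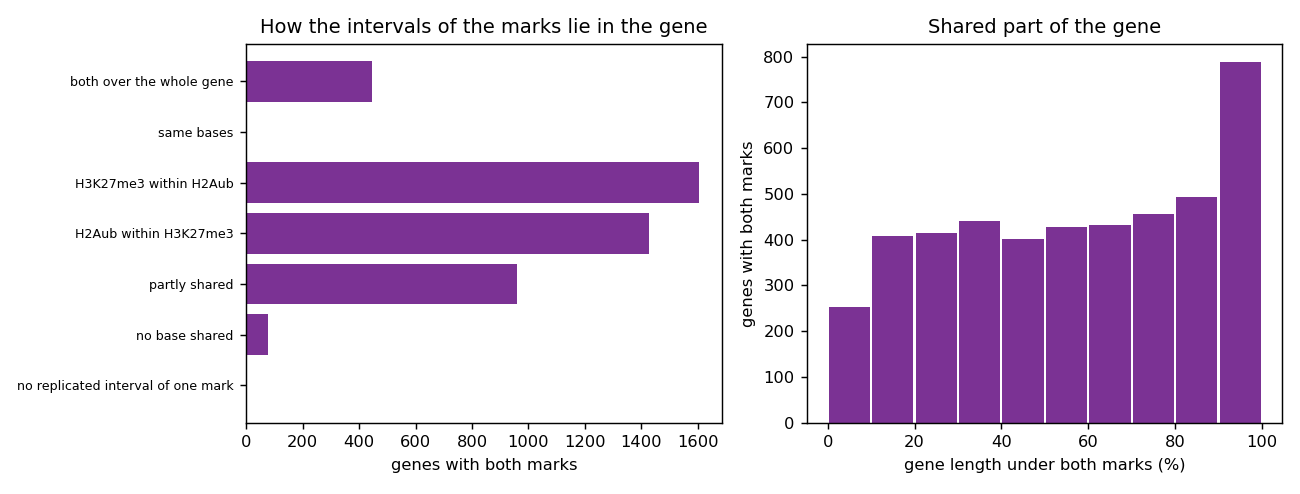
Left, number of the 4515 genes with both marks by the way the H2Aub and H3K27me3 bases lie within the gene, with nesting in 1605 and 1426 genes and no shared base in 76. Right, number of genes by the share of gene length under both marks (%, in steps of 10), with a median of 58.1%.

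Genes with H2Aub only were long and genes with H3K27me3 only were short. Over all gene types, median lengths were 2245 bp (quartiles 1474 and 3192) with H2Aub only, 1710 bp (1045 and 2526) with both marks, 1138 bp (482 and 1947) with H3K27me3 only and 1026 bp (351 and 2206) with neither, against 1807 bp over all genes. The classes also differed in gene types, as 1467 of 1953 genes with H3K27me3 only and 7044 of 10503 with neither mark were protein-coding, against 4200 of 4515 with both marks and 14733 of 16085 with H2Aub only. Among protein-coding genes alone the medians were 2364, 1783.5, 1448 and 1748 bp in the same order. The order of lengths depended on the overlap rule and on the H2Aub samples. When a peak had to cover at least 50% of the gene the 3 marked classes had medians of 1379 bp (H2Aub only), 1364 bp (both) and 1375.5 bp (H3K27me3 only), and genes with neither mark were the longest, at 2130 bp. Without H2Aub replicate 1 or 3, genes with neither mark had medians of 1616 and 1616.5 bp, above the 1376 and 1376.5 bp of genes with H3K27me3 only.

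**Figure D3:**
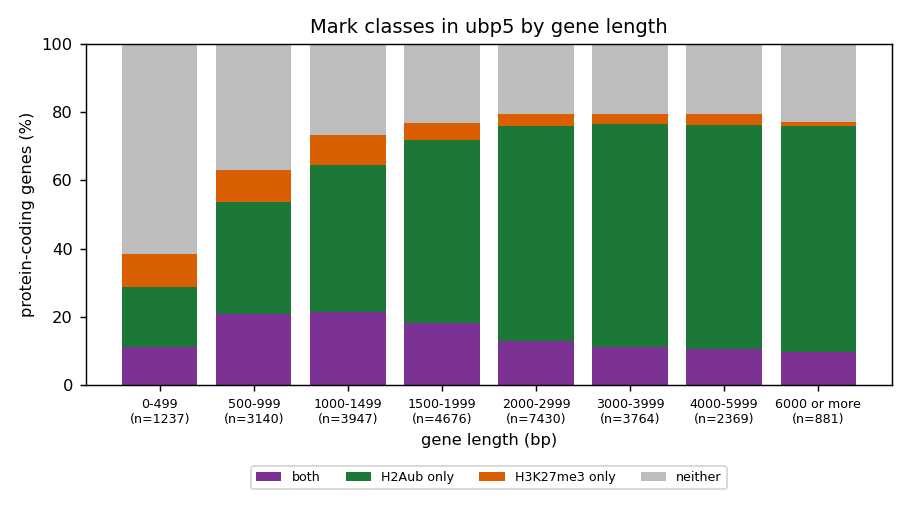
Share of protein-coding genes (%) in each class by gene length (bp), with the number of genes under each bar. H2Aub only (green) makes up 17.9% of genes under 500 bp and 66.5% of genes of 6000 bp or more, while H3K27me3 only (orange) goes from 9.46% to 1.14%.

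The share of protein-coding genes with H3K27me3 was 20.5% under 500 bp, 30.3% between 1000 and 1500 bp and 10.7% at 6000 bp or more. That with H2Aub was 28.9%, 64.5% and 76.0% in these bins. Of H3K27me3-marked genes, 53.8% also had H2Aub in the shortest bin and 89.4% in the longest. Genes with both marks had a median of 3 exons and were without an intron in 26.6% of cases, against 4 exons and 18.0% for genes with H2Aub only and 20.8% over all protein-coding genes. GC content was lowest in genes with H3K27me3 only, at a median of 37.1%, against 38.7% with both marks, 39.1% with H2Aub only and 38.6% with neither.

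Genes under H3K27me3 stood further apart from their neighbours. The median distance of a protein-coding gene to the nearest other gene was 654 bp with H3K27me3 only, 436 bp with both marks, 80 bp with H2Aub only and 135 bp with neither. Where genes overlap each other a single peak can mark more than 1 of them. Another gene overlapped 32.6% of protein-coding genes with H2Aub only and 14.9% of those with both marks, against 27.9% of all protein-coding genes. How often such genes shared a peak was not counted. Genes of a class also lay side by side. The next protein-coding gene along the chromosome was in the same class for 32.1% of genes with both marks and 32.3% of genes with H3K27me3 only, where these classes made up 15.3% and 5.35% of protein-coding genes. A peak that spans neighbouring genes puts them in the same class, so these are not separate observations. The longest run of genes with H3K27me3 only held 14 genes on chromosome 3, from AT3G21950 to AT3G22057 (7734219 to 7770261). The longest run with both marks held 10 genes on chromosome 5, from SAE1B to AT5G50665 (20585349 to 20615520). The longest run with neither mark held 106 genes on chromosome 2, from AT2G07360 to AT2G07810 (3047252 to 3594072), next to the centromere, where a copy of the mitochondrial genome is inserted. The authors left the organelle genomes out and kept only uniquely mapped reads. Genes of this run without a peak are thus not shown to lack the marks, and how well reads could be placed there was not tested. Across the 5 chromosomes the share of genes with both marks ranged from 12.8% to 14.6%.

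Promoter sequence was searched for a pair of motifs that DNA-binding Polycomb recruiters are known to bind. The telobox, AAACCCTA, is bound by TRB proteins, and the GAGA repeat, GAGAGAGA, by BPC proteins. Both were searched on both strands between 250 bp upstream and 50 bp downstream of each gene start, and the motifs do not overlap each other in letters. The telobox was found at 228 of 1953 genes with H3K27me3 only (11.7%), against 6.25% of genes with both marks, 5.75% with H2Aub only, 5.73% with neither and 6.16% of all genes. The GAGA repeat was at 7.83% of genes with H3K27me3 only, 8.86% with both marks, 8.13% with H2Aub only and 7.05% with neither, against 7.87% of all genes. In a wider window, reaching 500 bp upstream and 250 bp downstream, the telobox shares were 20.9%, 14.7%, 16.6% and 14.9% in that order of classes, so H3K27me3 only stayed the highest, while the GAGA repeat was then least frequent there, at 15.5% against 23.0% of all genes.

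Matches in genes that are described with their values show the context, read from the TAIR10.1 genome in the direction of the gene with the motif in capitals. WUS, WOX7, LDA and CLF have a telobox, at chr2:7810948-7810977 (minus strand), chr5:1734429-1734458 (plus), chr5:1221317-1221346 (plus) and chr2:9955112-9955141 (plus).
WUS: acatttttcaaTAGGGTTTtgtatgtatga
WOX7: taacatatccaAAACCCTAaaacgcaaaca
LDA: catatgaaaatTAGGGTTTtatattctttg
CLF: agcccaaacaaaTAGGGTTTaagagcccat
The printed stretches of WUS and WOX7 touched H3K27me3 peaks in both samples, and H2Aub peaks in 1 and 2 samples. That of LDA touched H3K27me3 in both and H2Aub in none, and that of CLF touched H2Aub in 2 samples and no H3K27me3. Telobox matches of BPC3 and TRB3 are not printed. That of BPC3 touched H2Aub in 3 samples and no H3K27me3, and that of TRB3 touched no peak of either mark.

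LFY, PI, LEC2 and FUS3 have a GAGA repeat, at chr5:24844262-24844291 (plus strand), chr5:6828763-6828792 (plus), chr1:9900033-9900062 (minus) and chr3:9856291-9856320 (minus).
LFY: agagagtgataGAGAGAGAgagaaaaatag
PI: taacctatcacGAGAGAGActgagatgatc
LEC2: ctgtattcataTCTCTCTCcttgtctgagt
FUS3: taaatgtggtaGAGAGAGAgaagaagacgc
All 4 printed stretches touched H3K27me3 peaks in both samples. That of LFY also touched H2Aub in 3 samples and that of FUS3 in 2, while those of PI and LEC2 touched it in none. Other GAGA matches are not printed. Those of SEP2, KNAT6, KNAT2, WUS and PRS touched H3K27me3 peaks in both samples. Those of BPC5, SEP4, PFS2, SVP, AGL31, ELF4 and UPL2 touched no H3K27me3 peak in either sample. A match is a description of the letters in these windows and does not show that a protein binds there.

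The classes differed in what their genes are known to do. The gene groups were described by counts without an enrichment test. The shares to read them against are those of protein-coding genes, of which 15.3% had both marks, 53.7% H2Aub only, 5.35% H3K27me3 only and 25.7% neither. Without replicate 3 of H2Aub these shares moved over all nuclear genes too. They went from 13.7% to 8.27% (both), 48.7% to 27.1% (H2Aub only), 5.91% to 11.3% (H3K27me3 only) and 31.8% to 53.4% (neither). Counts without replicate 3 are to be read against these. At the H3K27me3 end stood the floral organ identity MADS genes, transcription factors that specify sepals, petals, stamens, carpels and ovules. Of 13 genes 11 had H3K27me3 only, 2 had both marks and none had H2Aub only, and 7 had no H2Aub peak in any sample. AG (AGAMOUS, AT4G18960, chromosome 4, 10382856 to 10388539), which specifies stamens and carpels, was under H3K27me3 over all of its 5684 bp in both samples and under no H2Aub peak in any of 3 samples. STK, an ovule identity gene, was likewise covered over its full 4907 bp by H3K27me3 and not by H2Aub. PI and AP3, which specify petals and stamens, had 633 and 517 bp under H2Aub in replicate 3 and 0 bp in the others, so they were outside the rule by a single sample. The 2 genes with both marks were SEP4, with 547, 0 and 604 bp under H2Aub, and AGL8 (FRUITFULL), with 1206, 0 and 1350 bp. Without replicate 3 of H2Aub all 13 had H3K27me3 only.

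Flowering time genes showed another pattern, and none of the 12 had H3K27me3 only. Both marks were found on 7, H2Aub only on 4 and neither on 1. FLC (AT5G10140, chromosome 5, 3173382 to 3179448), the central repressor of flowering, had 1142, 567 and 1306 bp under H2Aub and 5617 and 5777 bp under H3K27me3 of its 6067 bp. H3K27me3 thus covered nearly the whole of FLC, and H2Aub a small part of it in every sample. FT, the mobile flowering signal, had 333, 0 and 717 bp under H2Aub and 2440 and 2466 bp of 2627 bp under H3K27me3. Its close relative TSF was covered by both marks over most of its 2240 bp, with 2097, 1034 and 2116 bp under H2Aub and 2240 bp under H3K27me3 in both samples. LFY, which sets floral meristem identity, was covered more by H2Aub, with 1787, 1736 and 2742 bp, than by H3K27me3, with 1711 and 1726 bp. CO, which reads day length, had H2Aub only, at 759, 1119 and 735 bp. Within the MAF genes, relatives of FLC, MAF4 and MAF5 had both marks, MAF3 and AGL31 (MAF2) had H2Aub only, and MAF1 had 330 bp under H2Aub in replicate 3 alone and was placed with neither. MAF2, MAF3, MAF4 and MAF5 are neighbours on chromosome 5, so the change of class fell within a tandem cluster. Without replicate 3 of H2Aub, 5 of the 12 had both marks and 2 had H3K27me3 only.

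The listed seed master regulators and the genes of seed storage proteins and oleosins were mostly under both marks. Genes with the process term embryo development ending in seed dormancy were not, with both marks on 18 of 206 (8.74%) and H2Aub only on 148 (71.8%). Of 5 seed master regulators 4 had both marks, as did 14 of 20 genes of seed storage proteins and oleosins (70.0%), the proteins of storage vacuoles and oil bodies, the other 6 having H2Aub only. ABI3 (AT3G24650, chromosome 3, 8997370 to 9001185), which governs late embryo gene expression, had 3130, 3041 and 3438 bp under H2Aub and 3634 and 3709 bp under H3K27me3 of its 3816 bp. DOG1, which sets seed dormancy, had 1483, 1370 and 1518 bp under H2Aub and 1313 and 1357 bp under H3K27me3 of 2089 bp. LEC1 had all 5 values between 571 and 662 bp. FUS3 was on the border of the rule, as H2Aub touched 21 bp in replicate 1, 0 bp in replicate 2 and 349 bp in replicate 3, while H3K27me3 covered all of its 2385 bp. LEC2 had H3K27me3 only, with 2889 and 3010 bp, and 347 bp of H2Aub in replicate 3 alone.

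The WOX and KNOX families, some members of which keep stem cells and meristems, were spread over the classes. Of 15 WOX genes, homeobox genes of stem cell niches and embryo axes, 10 had both marks, 2 H3K27me3 only, 1 H2Aub only and 2 neither. With replicate 3 of H2Aub left out, 7 of them had both marks and 5 H3K27me3 only. WUS (AT2G17950, chromosome 2, 7808871 to 7810811), which maintains the shoot stem cells, had 1748, 499 and 1899 bp under H2Aub and all of its 1941 bp under H3K27me3 in both samples. WOX5, its counterpart in the root, and PRS (WOX3) were covered by H2Aub over their full 1161 and 1583 bp in all 3 samples, and by H3K27me3 over 967 and 963 bp and over 1480 and 1583 bp. HB-3 (WOX9) carried H3K27me3 over all of its 2442 bp and no H2Aub peak. Among 8 KNOX homeobox genes, STM, the shoot meristem gene, and KNAT1 had H3K27me3 only. STM had 3273 and 3277 bp under H3K27me3 of 3482 bp and no H2Aub peak. KNAT3, KNAT4 and KNAT5 had H2Aub only, at 1091, 1374 and 1109 bp in KNAT3, and KNAT2, KNAT6 and KNAT7 had both marks.

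**Figure D4:**
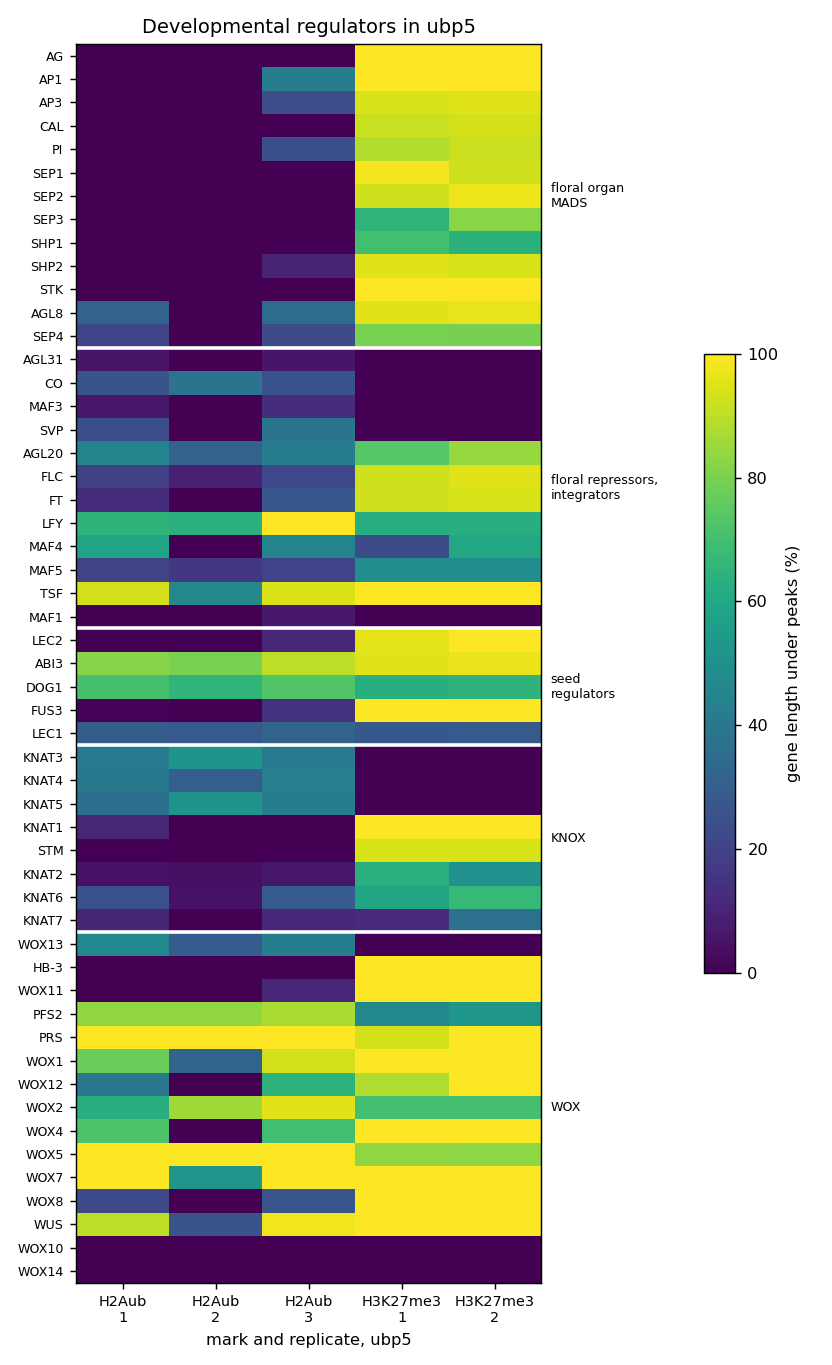
Share of gene length under peaks (%, colour) for floral organ MADS genes, flowering time genes, seed regulators, KNOX and WOX genes in each ubp5 sample (columns). H3K27me3 covers every floral organ gene, by 66.9% to 100% as a mean of both samples, where H2Aub columns are mostly at 0, while WUS, PRS, ABI3 and TSF carry both marks.

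The genes of the Polycomb system itself had shares of H2Aub near those of protein-coding genes in general. H2Aub marked 6 of 8 PRC2 genes, 5 of 6 PRC1 genes and 10 of 14 recruiter genes. Of 8 PRC2 subunits 6 had H2Aub only, but a single one, FIE, had a peak in all 3 samples, and without replicate 3 the count was 1. The methyltransferase CLF had 801, 0 and 711 bp under H2Aub and SWN 879, 0 and 842 bp, in genes of 5295 and 5408 bp. MEA and FIS2, the subunits of the endosperm complex, had H3K27me3 only, with 3658 and 3741 bp in MEA. MEA also had 4013 bp under H2Aub in replicate 3 and 0 bp in the others. RING1A and RING1B, PRC1 ubiquitin ligases, had H2Aub only in all 3 samples, at 949, 1091 and 987 bp and at 912, 1131 and 909 bp. EMF1, a PRC1-associated protein, was marked by H3K27me3 only, over 2263 and 2262 bp of 5758 bp. DRIP1 and DRIP2 (BMI1B and BMI1A) had both marks. Of 14 genes for DNA-binding proteins that bring Polycomb complexes to genes, 9 had H2Aub only, 4 neither and 1, BPC5, both marks, and without replicate 3 of H2Aub 5 had H2Aub only and 8 neither.

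Photosynthesis genes were the listed group with the highest share of H2Aub only when all samples were used. Of 47 nuclear photosystem and light-harvesting genes 44 had H2Aub only (93.6%) and none had H3K27me3, and 25 had an H2Aub peak in all 3 samples. Without replicate 3, 25 had H2Aub only (53.2%) and the other 22 had neither mark. That share was then below those of clock genes (8 of 13, 61.5%) and core histones (26 of 46, 56.5%). Pentatricopeptide repeat proteins, which process organelle RNA, had H2Aub only in 216 of 278 genes (77.7%) and both marks in 5, and without replicate 3 in 142 and 4. Proteasome subunits had H2Aub only in 31 of 48 genes (64.6%) and neither in 16, and without replicate 3 of H2Aub in 12 and 35. Cytosolic ribosomal proteins were the group with the most unmarked genes, as 103 of 194 (53.1%) had neither mark and 79 had H2Aub only, and without replicate 3 these counts were 142 and 40. No clock gene had H3K27me3, and H2Aub marked 9 of 13. PRR5 was covered over 2343, 1896 and 2343 bp of its 2343 bp, and CCA1 over 1127, 1407 and 1048 bp of 3325 bp. Clock genes TOC1 and ELF3 had no peak in any sample. Heat shock proteins (52 of 78), core histones (31 of 46) and cysteine-rich receptor-like kinases (28 of 39) also had mostly H2Aub only. These counts were 35, 26 and 19 without replicate 3 of H2Aub, so only core histones then had H2Aub only on most genes.

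Families with many members in specialised tissues or in defence were spread over the classes. Both marks were on 33 of 66 class III peroxidases, cell wall enzymes that use hydrogen peroxide, and on 58 of 129 pectin methylesterases and their inhibitors (45.0%). They were on 82 of 239 cytochrome P450s (34.3%) and 37 of 154 NLR immune receptors (24.0%). Expansins, which loosen cell walls, had both marks in 10 of 33 and H3K27me3 only in 5. Among transcription factor families, R2R3-MYB had both marks in 48 of 125 (38.4%) and H3K27me3 only in 25. The corresponding counts were 35 and 8 of 99 for NAC, 44 and 14 of 134 for bHLH, 23 and 9 of 71 for WRKY, 42 and 7 of 148 for AP2/ERF and 27 and 22 of 96 for AGAMOUS-like MADS genes. The auxin-induced SAUR genes had H2Aub only in 44 of 78 and both marks in 15, and Aux/IAA and ARF genes in 22 and 9 of 47. Aminoacyl-tRNA synthetases had H2Aub only in 40 of 64 and both marks in 7. Without replicate 3 of H2Aub, 21 R2R3-MYB genes had both marks in place of 48, and 12 WRKY genes in place of 23. Both marks were then on 22 class III peroxidases, 38 pectin methylesterases and inhibitors, 49 cytochrome P450s and 19 NLR receptors. Over all nuclear genes the share with both marks was then 8.27% in place of 13.7%.

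**Figure D5:**
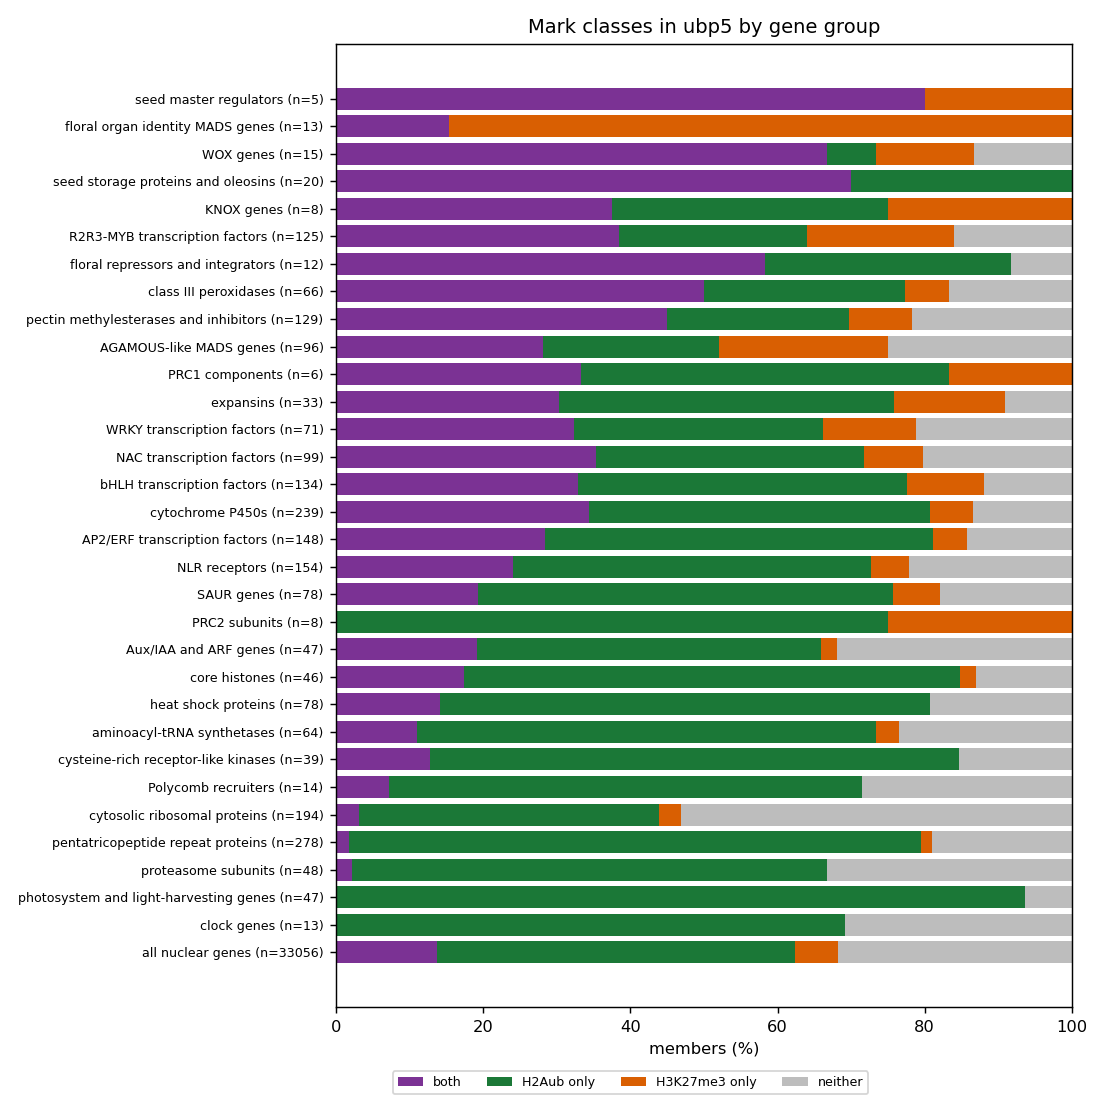
Share of members (%) in each class for 31 gene groups and for all 33056 nuclear genes (lowest bar), ordered by the share with H3K27me3. Photosystem and light-harvesting genes are at 93.6% H2Aub only, floral organ identity MADS genes at 84.6% H3K27me3 only, and seed storage proteins and oleosins at 70.0% both marks.

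By process terms of the annotation, 59 terms with at least 50 protein-coding genes could be compared. Cell wall modification had the highest share of genes with both marks, 37 of 62 (59.7%), and vesicle-mediated transport the lowest, 0 of 85. Photosynthesis had the highest share with H2Aub only, 71 of 79 (89.9%). Lipid transport had the highest share with H3K27me3 only, 17 of 111 (15.3%), and ribosome biogenesis the highest with neither, 42 of 103 (40.8%). Among product names, the TRAF-like family (14 of 45) and F-box and associated interaction domain proteins (44 of 153) had many genes with H3K27me3 only. Cysteine/Histidine-rich C1 domain proteins had both marks in 70 of 141. Defensin-like proteins (62 of 87), plant thionins (35 of 44) and proteins related to ECA1 gametogenesis (43 of 51), small secreted peptides, mostly had neither mark. Their genes had median lengths of 517, 279 and 357 bp, and of all protein-coding genes under 500 bp 61.7% had neither mark. The part of gene length in these shares was not tested.

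Genes that do not code for proteins were mostly unmarked. Neither mark was found on 546 of 625 tRNA genes (87.4%) and on 2006 of 3480 lncRNA genes (57.6%). The share was 48.9% for the 221 genes of type ncRNA. Gene length enters the overlap rule, and median lengths were 73 bp for tRNA and 343 bp for lncRNA genes. Among protein-coding genes under 500 bp, 61.7% had neither mark and 9.46% H3K27me3 only. The part of length in these shares was not tested. H3K27me3 only was found on 67 of 326 miRNA genes (20.6%), the highest share of any gene type with at least 10 genes, and on 338 lncRNA genes (9.71%). Pseudogenes, which are not among the 33056 genes, had neither mark in 4221 of 4843 cases (87.2%).

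The longest examples of each class were named by rule, as protein-coding genes with a symbol. Under both marks, LUP2 (AT1G78960, chromosome 1, 29696394 to 29701439), a triterpene synthase, had the longest stretch, 4643 bp, with 4675, 4531 and 4885 bp under H2Aub and 4828 and 4920 bp under H3K27me3. It was followed by EIR1 (PIN2), the auxin efflux carrier of root gravitropism, with 4337 bp, by CRH1, a GHKL-type ATPase, with 4089 bp, and by LDA, a limit dextrinase of starch breakdown, with 3944 bp. The transcription factors TGA10 and NAC075 had stretches of 3827 and 3780 bp. ICL, the isocitrate lyase of the glyoxylate cycle in germinating seeds, and SQP2, a squalene monooxygenase, were covered by H3K27me3 over their full 3567 and 3458 bp. In ICL H2Aub covered 3567, 2746 and 3567 bp. NAC075 had no H2Aub peak in replicate 2, and EIR1, CRH1 and LDA had 1650, 1439 and 1516 bp there, well below replicates 1 and 3. LDA had H2Aub only in Col-0, and the other 7 had both marks there.

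Among genes with H2Aub only, ABCG40 (AT1G15520, chromosome 1, 5331858 to 5338326), an abscisic acid importer, had the longest mean coverage, 4558 bp ± 868 (SD, n = 3) of 6469 bp. It was followed by P5CS1, which makes proline under stress, with 3486 bp ± 576 (SD, n = 3), by SIP2 and by SIP1, a raffinose synthase, with 3372 bp ± 749 and 3367 bp ± 860 (SD, n = 3). XYL4, a cell wall xylosidase, had 3516, 2998 and 3482 bp, and GLDP1, a subunit of the photorespiratory glycine decarboxylase, 3469, 2779 and 3567 bp. LOX3, a lipoxygenase of jasmonate synthesis, had 4114, 2597 and 3199 bp and was the only one of the 8 with both marks in Col-0. BGAL14, a beta-galactosidase, had 4720, 457 and 4648 bp. Long coverage is what chose these genes, and in replicate 2 BGAL14 had 9.38% of its length covered.

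Genes with H3K27me3 only by the strictest reading had no H2Aub peak in any of 3 samples. The longest covered were AG, PEN3 (a triterpene synthase), CSLB06 (a cellulose synthase-like protein) and STK, each under H3K27me3 over the whole gene, 5684, 5578, 5387 and 4907 bp, in both samples. They were followed by LAS1, lanosterol synthase, with 4397 and 4247 bp, TCP12, a repressor of branch outgrowth, with 4240 bp in both, AGL79 with 4108 and 4297 bp, and the homeobox gene HB-7 with 3948 and 4205 bp. All 8 had H3K27me3 only in Col-0 as well. The longest genes without a peak in any sample were ILA (AT1G64790, chromosome 1, 24064822 to 24083428) of 18607 bp, UPL2, a ubiquitin ligase of 13199 bp, RGD3, EMB2016 and ATMIN7.

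Most genes of each ubp5 class had the same class in Col-0, with the lowest share for H2Aub only. Of the 10503 genes with neither mark, 9471 (90.2%) had neither in Col-0. Of the 1953 genes with H3K27me3 only, 1536 (78.6%) had H3K27me3 only in Col-0, 216 had both marks and 194 neither. Of the 4515 genes with both marks, 3312 (73.4%) had both in Col-0, 492 had H2Aub only, 465 H3K27me3 only and 246 neither. Of the 16085 genes with H2Aub only, 8642 (53.7%) had H2Aub only in Col-0 and 6773 (42.1%) neither. The floral organ genes had the same class counts in Col-0, with 11 of 13 under H3K27me3 only. These counts depend on how many peaks were called in each sample, and the part of that in the result was not tested.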

How the data were processed

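Per the study's methods and the submitters' processing notes, the authors mapped reads to TAIR10 with STAR 2.7.8a and left out the organelle genomes. They removed duplicates with Picard, kept uniquely mapped reads and called broad peaks in each sample with MACS3 3.0.0 against input. The deposited scores equal the −log10 q-value multiplied by 10 and cut to whole numbers. The deposited fold values are mean enrichment ratios of the sample against background within each peak. The deposited −log10 p-values were not used, and the deposited −log10 q-values were used only to rank peaks where lists were reduced to equal covered length. The H2Aub lists had been filtered before deposit, with a lowest −log10 q of 3.00 in each, and the H3K27me3 lists reached 1.03. The 6 input samples are not analysed here.

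Peaks with a score over 30 were intersected with the genes of the RefSeq annotation of TAIR10.1, whose nuclear chromosomes contain all peak ends. Each gene was divided into 10 equal parts from start to end. Values per sample were compared by exact permutation tests (log2 scale for counts and lengths, logit for shares, percentage points for the median share of gene length), classes within samples by exact sign-flip tests. Gene lists came from symbols, product names and gene locations. In the lists 1 symbol, of a PRC1 component, had no match. Members, classes and gene lists were chosen with earlier results of these data known. Named genes were the fixed symbols of the lists, the 8 genes with the longest stretch under both marks, the 8 with the longest mean coverage with H2Aub only (peaks in all 3 samples and no H3K27me3) and with H3K27me3 only (peaks in both and no H2Aub), and the 5 longest without a peak. Alternatives used every deposited peak, scores over 60, equal covered length, protein-coding genes, a peak over 50% of the gene, other replicate rules, leaving out each sample, a replicate block, and windows of 250 and 1000 bp. Genes of 1500 to 2500 bp, the Col-0 samples and gene lists without H2Aub replicate 2 or 3 were added after seeing the data. The functions were tested on simulated peak lists. Python 3.11.15, NumPy 2.4.6, pandas and Matplotlib were used.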

Additional observations from a re-analysis of the deposited data

How the results depend on the processing

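All 127 alternatives of tested values kept the direction and the side of the threshold, which says little, as no p in this design could fall below 0.2. With the replicate number as a block, which uses the 2 numbers both marks share, the difference in number of peaks was 1.22 on the log2 scale (exact sign-flip p = 0.5), and no other call changed. The numbers are not stated to pair samples. Class counts were less stable. With lists reduced to the smallest covered length, 1392 genes had both marks, 8350 H2Aub only, 3010 H3K27me3 only and 20304 neither. With peaks in every sample required, the counts were 2731, 8940, 3737 and 17648. Leaving out each sample in turn, they ranged from 2734 to 4959, 8950 to 16014, 1966 to 3734 and 10340 to 17638, with the low counts of both marks without H2Aub replicate 1 (2741, 9001, 3727 and 17587) or 3. With 50% or more of the gene under a peak, 2705 genes had both marks, 6118 H2Aub only and 21905 neither, and with a score over 60, 2759 had both marks.

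Median gene lengths moved too. They were 1783.5 bp (both), 2364 bp (H2Aub only), 1448 bp (H3K27me3 only) and 1748 bp (neither) among protein-coding genes, 1364, 1379, 1375.5 and 2130 bp with at least 50% covered, and 1756, 2274, 1376 and 1616.5 bp with every sample required. Leaving out each sample in turn, they ranged from 1710.5 to 1756 bp (both), 2247 to 2274 bp (H2Aub only), 1135 to 1376.5 bp (H3K27me3 only) and 1026.5 to 1616.5 bp (neither). Genes with both marks had 1758 bp with all deposited peaks. H3K27me3 only had 1295.5 bp with a score over 60 and 1417.5 bp at equal covered length, where neither had 1674.5 bp. The share of genes whose marks met was 97.6% with all deposited peaks, 97.7% with every sample, 97.7% to 98.3% without single samples and 100% with at least 50% covered. In the wider promoter window, telobox shares were 14.7% (both), 16.6% (H2Aub only), 20.9% (H3K27me3 only) and 14.9% (neither), and those of the GAGA repeat 22.5%, 26.8%, 15.5% and 18.8%. The cause of these changes was not tested. Read depth is unknown from peak lists, so genes without a call cannot be told from genes too shallow to call.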
